A study of Arabidopsis thaliana with 36 samples.

Results

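Gene expression in Arabidopsis thaliana roots was compared between 180 min and 90 min after seedlings had been moved to fresh nitrate medium. The comparison takes all 8 libraries at 180 min and all 8 at 90 min, 16 of the 36 in the series. Each 180 min library was set against the 90 min library of the same KNO3 concentration and the same batch, which gives 8 pairs. The plants were 7-day-old seedlings of the Col-0 ecotype, raised on 1 mM KNO3 under a cycle of 16 h light and 8 h dark at 22 °C, and each library joined the roots of 2 plates. All plants also had 2 days of cold at 4 °C. At 2 h after dawn they went to fresh 1 mM or 10 mM KNO3, so the 4 groups are 1 mM and 10 mM at each time, with 4 libraries each, and both times share the move itself. Potassium was higher along with nitrate in the 10 mM medium, as far as the labels describe it. Roots were frozen 3.5 h after dawn at 90 min and 5 h after dawn at 180 min. Time since the move and time of day therefore cannot be told apart. The labels name batches BR1 to BR4, here batches 1 to 4, and call the replicates biological. They do not say whether the batches were sown and grown separately. The p-values rest on the spread among these libraries, and whether it covers separate sowings is not known.

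Several systems that run on an hourly scale bear on such a step. The circadian clock of plants is a loop of repressors in which CCA1 and LHY peak near dawn and hold down evening genes, the PRR proteins appear in turn through the day and hold down CCA1 and LHY, and ELF3, ELF4 and LUX form the evening complex. Jasmonate is a lipid hormone made after wounding and touch. It triggers the destruction of the JAZ repressors, and the genes it releases include the JAZ genes themselves and the enzymes that make and break down the hormone, which limits the response. Nitrate is taken up by NRT transporters, reduced by nitrate reductase and nitrite reductase, and also acts as a signal that induces these same genes and alters lateral root formation.

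The libraries were made by BrAD-seq, a digital gene expression method that sequences poly-A transcripts at their 3′ end. Total counts in the 16 libraries ran from 2155735 to 7512410 (median 5292488), with batch 1 the shallowest at a median of 2540247. Levels are given in CPM, counts scaled to the same library total in every sample. The first principal component (24% of variance) set batch 1 apart from the other batches, and the second (16.8%) separated the times, with all 8 libraries at 90 min above 0 and all 8 at 180 min below. Markers of root hair, endodermis, xylem and root tip were measured in full, 28 genes on 4 lists, and edgeR called 0 of these, while over all genes tested it called 8.12%. At an unadjusted p under 0.05 there were 5, and DESeq2 called 0. Summed root hair markers were at 237 to 357 CPM at 90 min and 294 to 413 CPM at 180 min. The photosynthesis markers, which stand for shoot tissue, summed to 39.9 to 52.5 CPM and 48.0 to 64.0 CPM. Of its 7 measured genes 6 had a positive value and 1 was called, RBCS1A (AT1G67090), a small subunit of Rubisco, at 0.88 ± 0.16. RBCS3B (AT5G38410), another small subunit, was not called, and its pair changes ran from -1.97 to 0.43. Of 5 phloem markers 1 was called, SUC2 (AT1G22710), a sucrose carrier, at 0.31 ± 0.08. The SUC2 call was lost without the pair terms (adjusted p = 0.0874) and without batch 1 or 3 (0.0653 and 0.0781). The part of these shifts in the results below was not tested. In bulk roots, fewer cells of a type and less RNA per cell cannot be told apart.

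**Figure D1:**
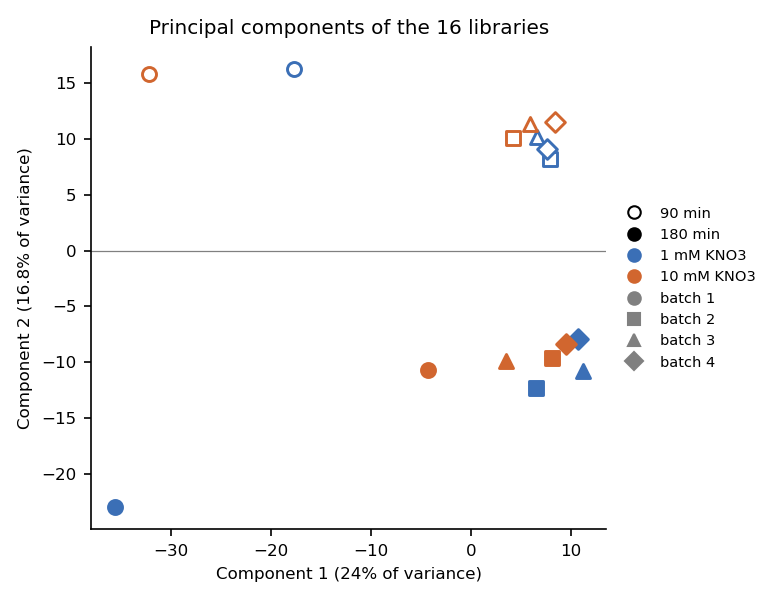
Principal components 1 and 2 of the 16 libraries, from log2 CPM, with the share of variance in percent on each axis. Open symbols are 90 min, filled symbols 180 min, colours give the KNO3 concentration and shapes the batch. The second component runs from 8.22 to 16.3 in the 8 libraries at 90 min and is below 0 in all 8 at 180 min.

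Between 90 and 180 min all 10 listed jasmonate repressor genes fell, and so did 7 of 12 morning clock genes. Rises were seen in 4 of 5 PRR genes and 5 of 14 evening clock and output genes, and 6 of 11 sulfate genes fell. The sharpest fall among named genes was in CLH1, a chlorophyllase gene, at a log2 fold change of -3.87 ± 0.30 (SE). The largest rise was in AT1G47400, at 2.03 ± 0.22. Over all 18768 genes tested, edgeR's quasi-likelihood test with 1 term per pair called 1524 at a Benjamini-Hochberg adjusted p of 0.05, which is 8.12% of genes. Of these 704 were higher at 180 min (3.75%) and 820 lower (4.37%). On the nitrate reduction and lateral root lists, 1 of 11 and 0 of 16 measured genes were called. Changes of at least 2-fold were found in 58 of the higher and 110 of the lower genes, and the median log2 fold change over all genes was 0.0092. The same direction in all 8 pairs was seen for 872 of the called genes (4.65% of those tested), 405 higher and 467 lower. Over all genes, called or not, 562 were higher in 8 of 8 pairs (2.99%) and 574 lower (3.06%). In 194 genes, 1.03% of those tested, the 8 values at 180 min did not overlap the 8 at 90 min. Without the pair terms the count was 759, and without batch 3 or batch 4 it was 996 and 890. All adjusted p-values below are from the same test over the same 18768 genes.

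Of 12 morning clock genes measured, 7 were called lower and 0 higher, with a median log2 fold change of -0.48, and the 5 others were not called. The same 7 and 0 were counted without batch 1 and without the pair terms. CCA1 (AT2G46830), a MYB-type repressor at the core of the clock, lay at 15.9 to 34.8 CPM at 90 min (median 19.4) and at 6.00 to 10.5 CPM at 180 min (median 9.15). The ranges did not overlap, every library at 180 min being below every library at 90 min. Its log2 fold change was -1.28 ± 0.13 (adjusted p = 1.97e-08), lower in 8 of 8 pairs. LHY (AT1G01060), the close partner of CCA1, went from 35.7 to 62.4 CPM (median 45.4) down to 16.3 to 29.1 CPM (median 19.8), also without overlap. Its log2 fold change was -1.09 ± 0.09 (adjusted p = 4.15e-10). RVE1 (AT5G17300), a related factor that links the clock to auxin, fell by 0.96 ± 0.15 on the log2 scale, from a median of 9.95 CPM to 5.58 CPM, in 8 of 8 pairs. Among the LNK genes, which encode co-activators that work with the RVE factors, LNK2 (AT3G54500) had the largest change at -0.82 ± 0.08, from 56.1 to 85.2 CPM at 90 min and 31.2 to 44.7 CPM at 180 min. LNK3, LNK4 and RVE8 were called too, at -0.60, -0.48 and -0.47.

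Of the 5 PRR genes, all measured, 4 were called higher and 0 lower, with a median of 0.62. TOC1 (AT5G61380), the last of the PRR series to peak in the day, lay at 8.52 to 15.5 CPM (median 11.4) at 90 min and at 13.8 to 21.6 CPM (median 18.4) at 180 min. These ranges overlap, but the value rose in 8 of 8 pairs (0.62 ± 0.11, adjusted p = 0.00018). PRR7 (AT5G02810) rose by 0.50 ± 0.08, from a median of 37.6 CPM to 51.7 CPM, in 8 of 8 pairs. PRR5 (AT5G24470) and PRR3 (AT5G60100) had few reads. PRR5 had 34 reads at 90 min and 91 at 180 min, a ratio of 2.84 (95% counting interval 1.90 to 4.35), and was higher in 7 of 8 pairs (1.42 ± 0.35, adjusted p = 0.0069). Its call was lost without batch 2 (adjusted p = 0.0865) or batch 4 (0.155), and that of PRR3 (1.24 ± 0.26) without batch 4 (0.80, adjusted p = 0.14). The list then counted 3 and 2 called genes without batches 2 and 4. PRR9 (AT2G46790), the first of the series to peak, was the member with a negative value, -0.63 ± 0.28 (adjusted p = 0.213), with 1.51 to 4.99 CPM at 90 min and 0.974 to 3.90 CPM at 180 min.

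Of the 14 measured evening clock and clock output genes, 5 were called higher and 1 lower, with a median of 0.13. GRP7 (AT2G21660) encodes an RNA-binding protein that cycles under the clock and binds its own transcript. It had 1885 to 2542 CPM at 90 min (median 2166) and 3494 to 5477 CPM at 180 min (median 4854), without overlap. The log2 fold change was 1.08 ± 0.08 (adjusted p = 2.57e-11). Its relative GRP8 (AT4G39260) rose by 0.64 ± 0.07 from a median of 1832 CPM to 2724 CPM, and again the ranges did not overlap. ELF4 (AT2G40080), a subunit of the evening complex, was at 24.5 to 36.2 CPM (median 26.4) and at 49.1 to 76.1 CPM (median 59.0). Every library at 180 min lay above every library at 90 min (1.02 ± 0.09, adjusted p = 1.53e-09). LUX (AT3G46640), the DNA-binding subunit, rose by 0.41 ± 0.09 and GI (AT1G22770), a large protein that stabilises ZTL, by 0.56 ± 0.09. ELF3, the remaining subunit, was not called. The lower gene was CDF2 (AT5G39660), a repressor that GI helps to degrade, at -0.31 ± 0.10 (adjusted p = 0.0427). Leaving out batch 2, 3 or 4, fitting without the pair terms, or DESeq2 left 5 genes higher and 0 lower.

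**Figure D2:**
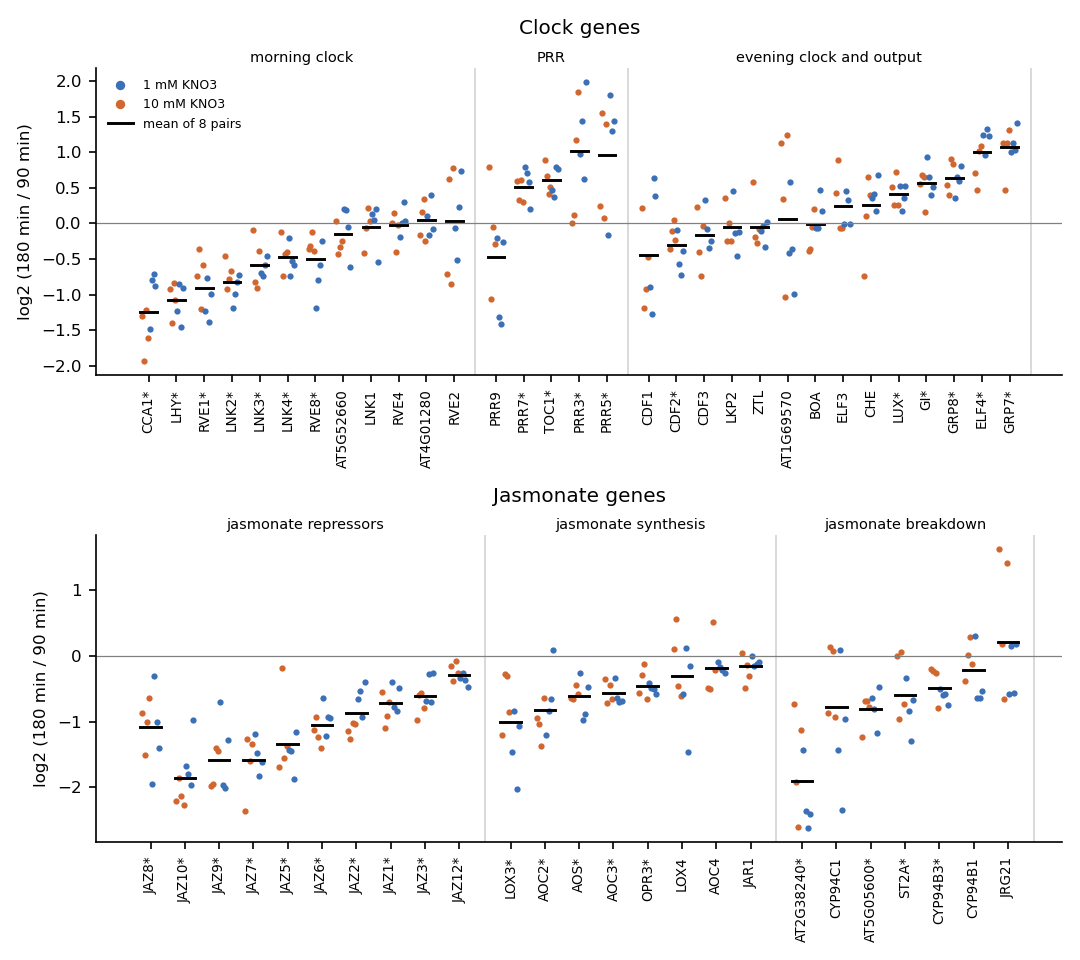
Change from 90 to 180 min in each of the 8 pairs, as log2 of the ratio of CPM, for the measured members of the clock and jasmonate lists. Each point is 1 pair, blue for 1 mM and orange for 10 mM KNO3, the bar is the mean of 8 pairs and an asterisk marks a gene called over the 8 pairs. All points of CCA1, LHY and JAZ10 lie below 0 and all points of TOC1, ELF4 and GRP7 above 0.

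The sequences before these genes are shown because called genes of the morning list were lower and those of the PRR list higher, and the sites bound by their factors are short and readable. Each is 300 bases of RefSeq assembly TAIR10.1, from 250 bases before the annotated gene start to 50 after it, printed 5′ to 3′ on the strand of the gene. Capitals mark the evening element AAAATATCT, the CCA1 binding site AAAAATCT or the G-box CACGTG, searched on both strands, so that the reverse complement is in capitals too.
CCA1, chr2:19245341-19245640, plus strand: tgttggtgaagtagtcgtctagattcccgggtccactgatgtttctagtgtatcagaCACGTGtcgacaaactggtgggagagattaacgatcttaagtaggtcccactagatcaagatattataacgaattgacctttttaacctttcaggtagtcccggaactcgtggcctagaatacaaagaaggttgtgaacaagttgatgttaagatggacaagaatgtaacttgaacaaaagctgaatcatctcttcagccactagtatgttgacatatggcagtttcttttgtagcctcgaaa
LHY, chr1:37822-38121, minus strand: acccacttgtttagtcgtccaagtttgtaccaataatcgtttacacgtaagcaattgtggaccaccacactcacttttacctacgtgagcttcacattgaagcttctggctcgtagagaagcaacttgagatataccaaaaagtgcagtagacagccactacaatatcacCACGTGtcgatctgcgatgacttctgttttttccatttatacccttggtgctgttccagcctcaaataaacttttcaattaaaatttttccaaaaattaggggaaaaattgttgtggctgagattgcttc
TOC1, chr5:24674713-24675012, plus strand: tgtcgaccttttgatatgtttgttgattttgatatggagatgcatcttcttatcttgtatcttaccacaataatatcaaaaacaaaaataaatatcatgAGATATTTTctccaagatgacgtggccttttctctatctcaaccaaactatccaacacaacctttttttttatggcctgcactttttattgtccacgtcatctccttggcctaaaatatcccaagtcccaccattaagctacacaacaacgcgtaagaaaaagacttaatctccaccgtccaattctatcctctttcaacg
PRR5, chr5:8358497-8358796, minus strand: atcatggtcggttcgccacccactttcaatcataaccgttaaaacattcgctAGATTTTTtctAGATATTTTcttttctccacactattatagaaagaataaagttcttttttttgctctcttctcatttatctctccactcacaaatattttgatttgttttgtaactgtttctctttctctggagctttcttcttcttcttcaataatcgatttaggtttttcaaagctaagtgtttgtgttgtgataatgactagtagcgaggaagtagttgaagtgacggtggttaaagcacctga
GRP7, chr2:9266508-9266807, minus strand: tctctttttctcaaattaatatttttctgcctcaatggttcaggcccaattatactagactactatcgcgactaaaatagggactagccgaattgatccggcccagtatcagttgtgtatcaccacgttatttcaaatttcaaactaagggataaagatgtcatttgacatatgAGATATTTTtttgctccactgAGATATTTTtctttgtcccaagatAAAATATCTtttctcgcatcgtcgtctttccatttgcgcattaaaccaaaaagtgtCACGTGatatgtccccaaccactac
GRP8, chr4:18275167-18275466, minus strand: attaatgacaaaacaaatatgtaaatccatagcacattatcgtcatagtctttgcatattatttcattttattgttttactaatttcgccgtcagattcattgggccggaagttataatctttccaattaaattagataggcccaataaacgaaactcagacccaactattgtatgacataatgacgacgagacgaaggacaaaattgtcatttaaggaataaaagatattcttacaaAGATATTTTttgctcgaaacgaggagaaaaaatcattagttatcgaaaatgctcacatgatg
The CCA1 and LHY windows hold 1 G-box each and no evening element. GRP7 holds 3 evening elements and 1 G-box, TOC1 and GRP8 hold 1 evening element, and PRR5 holds 1 evening element beside 1 CCA1 binding site. The windows printed are a choice. Of the other clock genes called higher, LUX holds 1 evening element, and PRR7, PRR3, ELF4 and GI hold no evening element. The element is also in PRR9 and BOA, which were not called, and in FKF1 and JMJD5, which had too few reads to be tested. A G-box is in 9 of 13 morning clock, 2 of 5 PRR, 4 of 16 evening and 4 of 10 jasmonate repressor promoters. An evening element is in 1, 3, 6 and 1 of these, and the CCA1 binding site in 2, 1, 2 and 0. The evening element is in 2.94% of the 18408 promoters of tested genes, in 8.8% of the 693 whose gene was called higher and in 3.07% of the 814 whose gene was called lower. The G-box is in 8.84% of tested promoters, 10.5% of those of higher and 15.5% of those of lower genes. For the CCA1 binding site the shares were 8.13%, 8.66% and 7.49%. These are matches of letters in a window and say nothing of whether a factor binds there.

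The list of jasmonate repressors holds JAZ1 to JAZ3, JAZ5 to JAZ10 and JAZ12, and does not hold JAZ4, JAZ11 or JAZ13. All 10 listed genes fell. Their median log2 fold change was -1.24, against 0.0092 over all genes, and the median of the list was below 0 in all 8 pairs. JAZ10 (AT5G13220), a repressor whose splice forms resist hormone-triggered destruction, had 32.3 to 97.1 CPM at 90 min (median 56.8) and 10.5 to 25.6 CPM at 180 min (median 13.3). The highest library at 180 min was below the lowest at 90 min (-1.89 ± 0.11, adjusted p = 1.48e-13). JAZ9 (AT1G70700) went from a median of 22.2 CPM to 8.36 CPM (-1.65 ± 0.13) and JAZ7 (AT2G34600) from 14.5 CPM to 4.71 CPM (-1.64 ± 0.14), both without overlap. JAZ1 (AT1G19180) had 189 to 266 CPM and 96.4 to 180 CPM (-0.73 ± 0.08), and JAZ12 (AT5G20900) had the smallest change of the 10 at -0.29 ± 0.07. JAZ8 (AT1G30135) was read 36 times at 90 min and 5 times at 180 min, 6.78-fold lower with a 95% counting interval of 2.65 to 22.1. Its call was lost without batch 4 (adjusted p = 0.0667), when 8 of the 10 were called. From 45 to 90 min 9 of the 10 had also been called lower. In that preceding step, which shares the 90 min libraries, 1295 genes were called (6.9%), 634 higher (3.38%) and 661 lower (3.52%). There JAZ10 was at -0.94. At 180 min its mean was 16.4 ± 6.55 CPM (SD, n = 4) on 1 mM, against 6.08 ± 0.88 CPM at 0 min.

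Some genes for making and for breaking down jasmonate fell as well. Of the 8 measured synthesis genes 5 were called lower and 0 higher (median -0.52), and of the 7 measured breakdown genes 4 were lower and 0 higher (median -0.63). AOS (AT5G42650), the allene oxide synthase that commits the pathway, had 58.0 to 88.5 CPM (median 75.1) at 90 min and 41 to 56.65 CPM (median 46.0) at 180 min. The ranges did not overlap (-0.63 ± 0.08, adjusted p = 1.76e-06). AOC3 (AT3G25780), an allene oxide cyclase, and OPR3 (AT2G06050), the reductase of the next step, were at -0.58 ± 0.08 and -0.46 ± 0.08. LOX3 (AT1G17420), the lipoxygenase at the start of the pathway, had 117 reads against 44, 2.5-fold lower with a 95% counting interval of 1.76 to 3.63. AOC2 was called at -1.04 but not by DESeq2 (adjusted p = 0.0629), without the pair terms (0.159) or without batch 1, 2 or 3 (0.0999, 0.101 and 0.155). It belongs to a family of close copies, so the split of reads is uncertain. On the breakdown side, AT2G38240, a 2-oxoglutarate dioxygenase, had the largest change at -1.98 ± 0.17, from 13.4 to 31.1 CPM at 90 min and 3.15 to 11.7 CPM at 180 min. AT5G05600, of the same enzyme family, fell by 0.81 ± 0.08, and ST2A (AT5G07010), a sulfotransferase, by 0.63 ± 0.13. CYP94B3 (AT3G48520), which oxidises the active conjugate, was at -0.53 ± 0.11. Unlike the repressors, the breakdown list had a median of 0.02 in the preceding step, where 2 of its genes were lower and 0 higher.

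Of 21 touch and wound transcription factors, 10 were lower and 1 higher (median -0.44). WRKY40 (AT1G80840), a factor of defence responses, had 3.00 to 9.02 CPM at 90 min and 0.731 to 4.79 CPM at 180 min, lower in 8 of 8 pairs (-1.64 ± 0.23, adjusted p = 4.77e-06). ERF2 (AT5G47220), an ethylene response factor, fell by 1.14 ± 0.15, from a median of 15.7 CPM to 7.34 CPM. The higher gene was MYB73 (AT4G37260), at 0.41 ± 0.11. The count of lower factors was 4 without the pair terms, 6, 4 and 6 without batches 2, 3 and 4, and 10 without batch 1. Among 7 touch-induced calmodulin-like and cell wall genes only TCH3 (AT2G41100), a calmodulin-like protein, was called, at -0.88 ± 0.14. TCH4 (AT5G57560), a cell wall enzyme, was at -0.52 ± 0.25 (adjusted p = 0.254), with 2.4 to 5.95 CPM and 1.59 to 4.63 CPM at the 2 times. In the preceding step 6 of those 7 had been called lower.

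**Figure D3:**
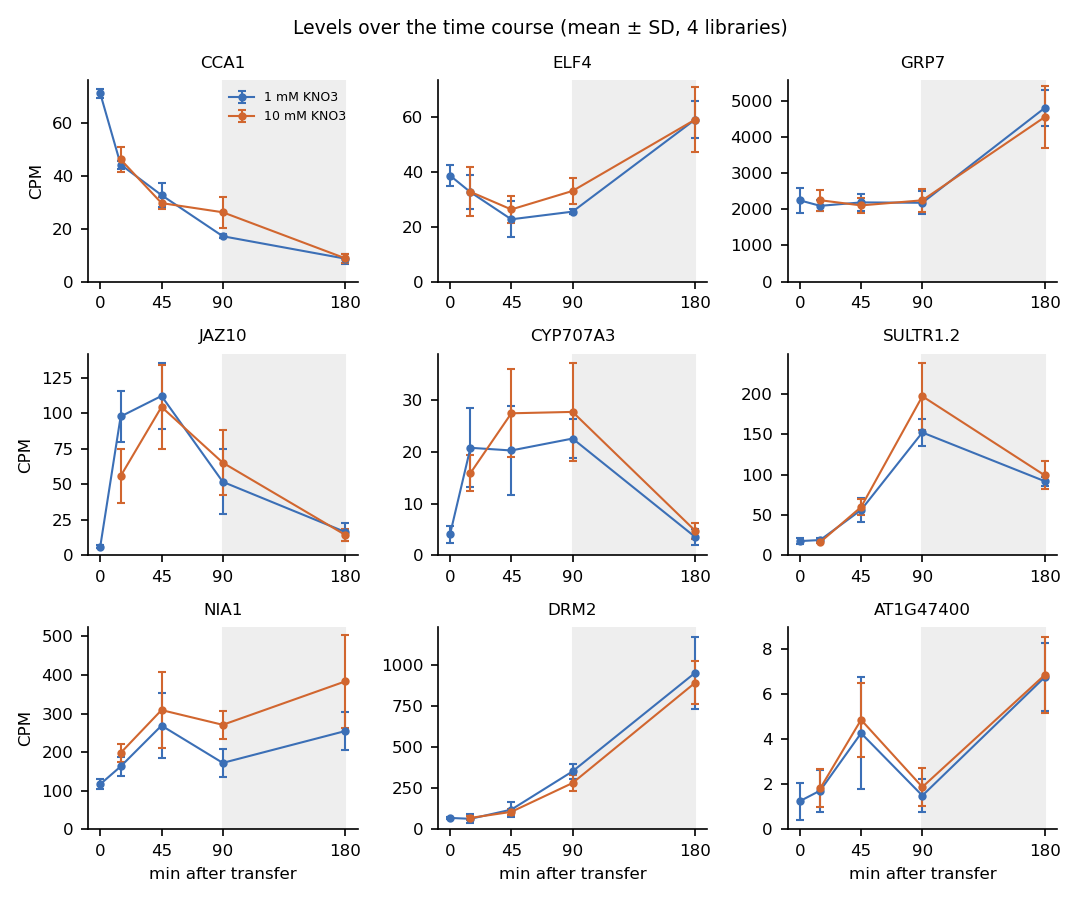
Mean CPM ± SD of 4 libraries for 9 genes over the time course, in min after the move, on 1 mM (blue) and 10 mM KNO3 (orange). The shaded span is the step from 90 to 180 min. CCA1 falls throughout, JAZ10 falls from 45 to 90 min and further to 180 min, and CYP707A3 is high at 45 and 90 min and low at 180 min. SULTR1.2 peaks at 90 min, and ELF4, GRP7 and DRM2 are highest at 180 min.

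Of 11 sulfate genes measured, 6 were called lower and 0 higher from 90 to 180 min (median -0.29), while 3 were higher and 0 lower from 45 to 90 min (median 0.30). SULTR1.2 (AT1G78000), the main root sulfate uptake carrier, had 136 to 254 CPM at 90 min (median 165) and 73.4 to 111 CPM at 180 min (median 95.1). The ranges did not overlap (-0.85 ± 0.08, adjusted p = 9.49e-09). From 45 to 90 min it had changed by 1.58, and the difference between the steps was -2.43 (adjusted p = 2.13e-12). SDI1 (AT5G48850), a repressor of glucosinolate synthesis under low sulfur, fell by 0.84 ± 0.09 and differed between the steps by -1.39 (adjusted p = 4.6e-05). APR3 (AT4G21990), a reductase of the sulfate assimilation pathway, fell by 0.49 ± 0.07 with no overlap, from a median of 117 CPM to 81.4 CPM. APR1 (AT4G04610) and LSU2 (AT5G24660), a gene of the low-sulfur response, were at -0.41 ± 0.07 and -0.46 ± 0.08. In the test of the difference between the steps over all genes, 515 were called (2.74%), 169 with a more positive later step (0.9%) and 346 with a more negative one (1.84%).

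The genes with the 6 smallest p-values in that test all had negative values. CLH1 (AT1G19670), named for breaking down chlorophyll, had 7.10 to 14.35 CPM at 90 min and 0 to 2.7 CPM at 180 min, after a rise of 1.05 in the preceding step. CYP707A3 (AT5G45340), an enzyme that inactivates abscisic acid, went from 17.65 to 36.9 CPM (median 23.1) down to 1.49 to 6.99 CPM (median 4.00), and its log2 fold change was -2.54 ± 0.14 (adjusted p = 2.03e-14). All 8 libraries at 180 min were below all 8 at 90 min. AT3G25570, an adenosylmethionine decarboxylase of polyamine synthesis, AT1G30820, a CTP synthase, and SIP2 (AT3G57520), of raffinose metabolism, also had no overlap between times. Their log2 fold changes were -1.46 ± 0.10, -1.12 ± 0.08 and -1.02 ± 0.08, after 0.99, 0.96 and 1.1 in the preceding step.

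Of the other genes with the largest falls, AT5G62360, a pectin methylesterase inhibitor family protein, was at -2.07 ± 0.18 and MSRB8 (AT4G21840), a methionine sulfoxide reductase, at -1.97 ± 0.14, from a median of 23.8 CPM to 5.58 CPM. ILL6 (AT1G44350), which splits amino acid conjugates of hormones, had 6.71 to 19.8 CPM at 90 min and 2.35 to 6.67 CPM at 180 min (-1.70 ± 0.17). AT2G36690, FAMT (AT3G44860), ALD1 (AT2G13810) and MAPKKK21 (AT4G36950) were at -1.81, -1.75, -1.72 and -1.66, with overlapping ranges. Their fall in 8 of 8 pairs was a condition for being named here. ALD1, which makes a signal of systemic defence, was the most scattered of these, at 0.670 to 10.25 CPM at 90 min and 0 to 1.75 CPM at 180 min.

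Among the largest rises, DRM2 (AT2G33830), of the dormancy and auxin associated family, had 232 to 404 CPM at 90 min (median 315) and 753 to 1257 CPM at 180 min (median 880). The change was 1.54 ± 0.08 (adjusted p = 7.51e-15), and it had also been 1.54 from 45 to 90 min. THI1 (AT5G54770), which makes the thiazole part of thiamine, rose by 1.46 ± 0.10, from a median of 17.8 CPM to 47.8 CPM. ABF1 (AT1G49720), a factor of abscisic acid responses, rose by 1.61 ± 0.16, from 4.8 to 14.1 CPM at 90 min and 14.8 to 33.4 CPM at 180 min. GSTF14 (AT1G49860), a glutathione S-transferase, and CXXS1 (AT1G11530), a thioredoxin-like protein, both rose by 1.44, and AT4G22230, a defensin-like protein, by 1.49 ± 0.08. In these genes the 8 values at 180 min were all above the 8 at 90 min. AT1G33055, AT3G46880, AT5G37450 and AT1G11210 were at 1.72, 1.65, 1.47 and 1.43, at low levels of at most 12 CPM.

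Iron genes moved in both directions, 2 of 15 measured being higher and 5 lower (median 0.03). AT1G47400 had 0.959 to 2.87 CPM at 90 min and 4.33 to 8.75 CPM at 180 min, after a fall of 1.3 in the preceding step. Its neighbour AT1G47395 rose by 1.86 ± 0.18, and counting could split reads between the pair. OPT3 (AT4G16370), a carrier of iron in the phloem, rose by 0.95 ± 0.18. IRT1 (AT4G19690), the main iron uptake carrier, had 4.8 to 12.7 CPM at 90 min and 0.213 to 5.04 CPM at 180 min, lower in 8 of 8 pairs (-1.73 ± 0.24, adjusted p = 5.64e-06). FRO2 (AT1G01580), the ferric reductase that feeds it, was at -1.09 ± 0.21 in 7 of 8 pairs. FRU (AT2G28160), the factor that drives both, FER1 (AT5G01600), a ferritin, and NAS1 (AT5G04950), of nicotianamine synthesis, were at -0.32, -0.34 and -0.40.

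Of 11 nitrate reduction genes, those that supply its reducing power included, 1 was higher and 0 lower (median 0.04), whereas 8 had been lower and 0 higher from 45 to 90 min (median -0.40). NIA1 (AT1G77760), a nitrate reductase, had 121 to 300 CPM at 90 min (median 215) and 189 to 557 CPM at 180 min (median 293). It rose by 0.52 ± 0.09 (adjusted p = 0.000159), in 7 of 8 pairs, with overlap between the times. Its means were 172 ± 35.5 and 255 ± 49.3 CPM (SD, n = 4) on 1 mM and 271 ± 36.1 and 384 ± 120 CPM on 10 mM. NIR1 (AT2G15620), the nitrite reductase, was at 0.18 ± 0.07 (adjusted p = 0.15), with 519 to 792 CPM and 601 to 894 CPM. The high-affinity transporter NRT2.1 (AT1G08090) was at 0.16 ± 0.08 (adjusted p = 0.282). Of 13 nitrate transport genes 3 were higher and 1 lower, among them NPF3.1 (AT1G68570) at 0.60 ± 0.16, a call lost without batch 2 or 3 (adjusted p = 0.134 and 0.108). The list counted 0 higher and 0 lower without batch 2, and 1 and 0 without batch 3.

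Among 21 nitrate response regulators 1 was higher and 3 lower. BT5 (AT4G37610), a scaffold protein of the BTB and TAZ family, fell from 59.7 to 86.9 CPM to 42 to 57.3 CPM (-0.54 ± 0.08), without overlap. BT1 (AT5G63160) fell by 0.43 ± 0.09 (adjusted p = 0.000957, and 0.126 without the pair terms), while BT2 (AT3G48360) was at -0.21 ± 0.12 (adjusted p = 0.358). In ammonium assimilation 1 of 17 was higher and 4 lower. AMT1.1 (AT4G13510), an ammonium uptake carrier, fell by 0.41 ± 0.07, from a median of 220 CPM to 172 CPM. ASN1 (AT3G47340), an asparagine synthetase, was at -0.35 ± 0.10 (adjusted p = 0.0241). That call was lost without the pair terms (adjusted p = 0.424), in a fit of all 36 libraries (0.104) and without batch 3 or 4 (0.206 and 0.0674). By medium, edgeR put ASN1 at -0.65 on 1 mM (adjusted p = 0.00136) and -0.065 on 10 mM (0.871). The difference between media was not called (adjusted p = 0.981). HAK5 (AT4G13420), the high-affinity potassium carrier, fell by 0.96 ± 0.13 and was the only called gene of 9 on the potassium list. Of 10 phosphate genes edgeR called 0 (2 at an unadjusted p under 0.05) and DESeq2 0 (median 0.08). For a list this short that is near the 8.12% edgeR called over all genes.

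Of 16 measured founder cell factors and 14 cell cycle genes edgeR called 0, with medians of 0.10 and 0.06. Over all genes tested it called 8.12%, and on lists this short 0 is near that share. At an unadjusted p under 0.05 there were 3 and 1, and DESeq2 called 0 of either list. On 1 mM alone 1 founder cell list gene was called, RLK7 (AT1G09970), a receptor-like kinase, at -0.41 (adjusted p = 0.0263). LBD16 (AT2G42430), a factor of founder cell polarity, had 4.78 to 9.59 CPM at 90 min and 4.6 to 11.2 CPM at 180 min, and its log2 fold change was 0.03 ± 0.16 (adjusted p = 0.958). Among auxin carriers, PIN5 (AT5G16530), a carrier of the endoplasmic reticulum, rose by 0.88 ± 0.14 and LAX3 (AT1G77690), an influx carrier, by 0.34 ± 0.08. Of the cytokinin genes, CYP735A2 (AT1G67110), which makes trans-zeatin, rose by 0.95 ± 0.12, and ARR7 (AT1G19050), a type-A response regulator, by 0.71 ± 0.12. They were the called members of 8 cytokinin enzyme and 10 type-A regulator genes.

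Of 9 measured low oxygen genes 5 were called higher and 0 lower, and all 9 values were positive (median 0.39). PDC1 (AT4G33070), the pyruvate decarboxylase of fermentation, had 2.88 to 4.88 CPM at 90 min and 5.40 to 12.2 CPM at 180 min, without overlap (1.24 ± 0.17, adjusted p = 5.27e-06). HB1 (AT2G16060), a haemoglobin, was at 0.43 ± 0.10, a call lost without the pair terms (adjusted p = 0.429). HRE1 (AT1G72360), an ethylene response factor of hypoxia, was at 0.39 ± 0.11. The number called fell to 1 without the pair terms, 3 with DESeq2 and 2, 3, 2 and 3 without batches 1 to 4. ADH1 (AT1G77120), the alcohol dehydrogenase, had 5.33 to 10.6 CPM and 6.66 to 15.3 CPM and was not called.

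The flavonoid and indole glucosinolate lists held calls in the lower direction only. Of 12 flavonoid genes 5 were lower and 0 higher (median -0.29), with UGT78D1 (AT1G30530), a flavonol glycosyltransferase, at -1.32 ± 0.14 and no overlap between 19.7 to 27.8 CPM and 4.87 to 14.7 CPM. F3H (AT3G51240), flavanone 3-hydroxylase, fell by 0.61 ± 0.08. The list counted 2 lower genes without the pair terms. Of 11 indole glucosinolate genes 4 were lower and 0 higher. CYP79B3 (AT2G22330), which turns tryptophan into the first intermediate, had 179 to 245 CPM and 128 to 159 CPM (-0.54 ± 0.07, adjusted p = 1.14e-06). Its close relative CYP79B2 (AT4G39950) was at -0.54 ± 0.09 and CYP83B1 (AT4G31500), the next enzyme, at -0.47 ± 0.07. Among 16 aquaporins 5 were lower and 0 higher, PIP2.3 (AT2G37180) at -0.62 ± 0.09 and PIP2.5 (AT3G54820) at -0.95 ± 0.15. PIP2.3 and PIP2.2 are near-identical neighbours, and reads may be split between them. Without the pair terms or without batch 4, 2 aquaporins were called, and 3 without batch 1, 2 or 3.

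**Figure D4:**
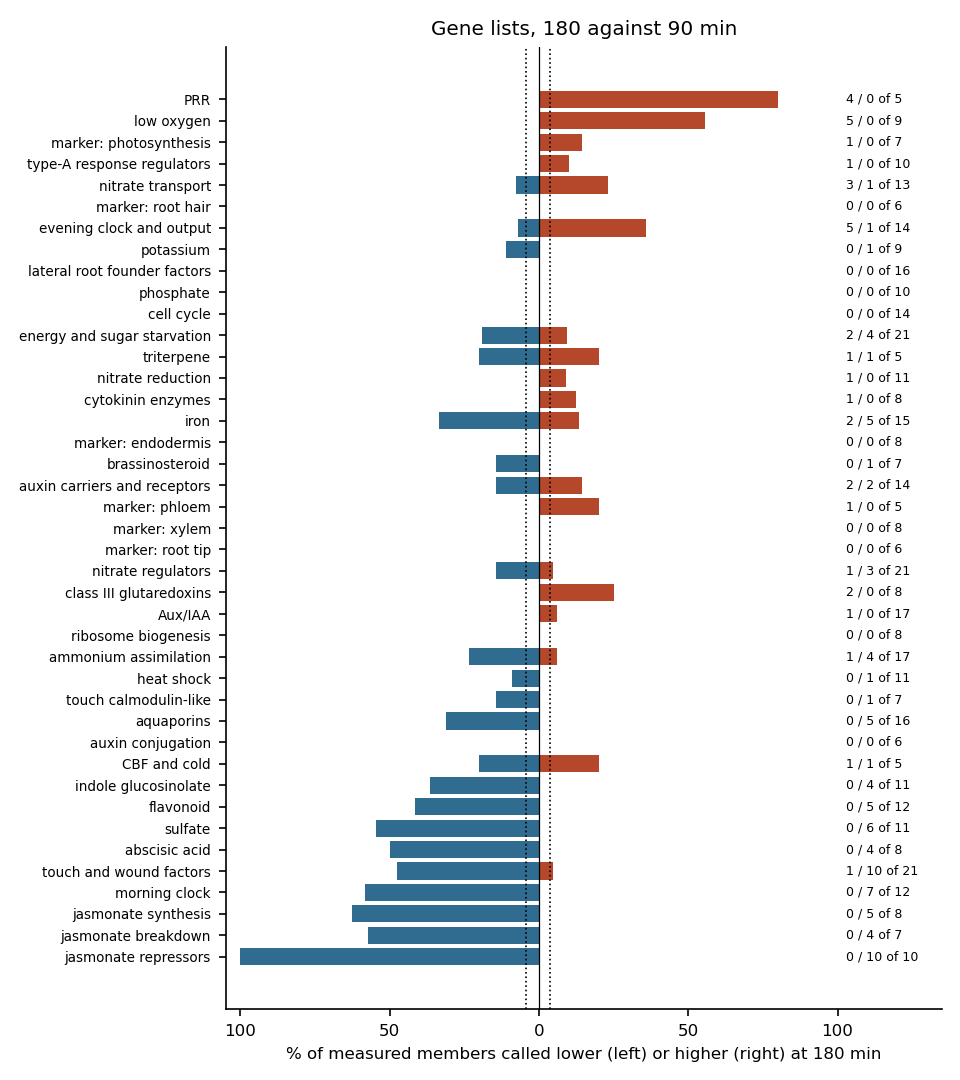
Percent of the measured members of each list called lower (left) or higher (right) at 180 min, ordered by median log2 fold change, with the counts higher / lower of measured at the right. Dotted lines mark the shares over all genes tested, 4.37% lower and 3.75% higher. Jasmonate repressors reach 100% on the left and PRR genes 80% on the right.

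The step was also fitted on each medium. On 1 mM 648 genes were called (3.45%), 240 higher (1.28%) and 408 lower (2.17%), and on 10 mM 752 (4.01%), 355 higher (1.89%) and 397 lower (2.12%). The lists share 377 genes, which is 58.2% of the 1 mM calls and 50.1% of the 10 mM calls, all in 1 direction. Of the 1 mM calls 631 had the same sign on 10 mM (97.4%), and of the 10 mM calls 723 had the same sign on 1 mM (96.1%), against 61.5% of all genes. The 2 media share no library, though each batch spans both. Across genes, which are not independent replicates, the 1 mM and 10 mM steps correlated at r = 0.448. All 1524 genes called over the 8 pairs had the same sign on both media, and 608 of them were called on neither medium alone. Their equal sign is largely set by the selection, since the call used 1 coefficient over the pairs of both media.

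The difference of the step between the media was tested directly. edgeR called 0 genes of 18768 (0%), with 914 at an unadjusted p under 0.05 and a smallest adjusted p of 0.292, and DESeq2 also called 0, with 395 at an unadjusted p under 0.05. With no filter on low counts 12 genes were called, without batch 1 there were 5 and without batch 2 there was 1. COR78 (AT5G52310), a gene of cold and drought responses, had the smallest p. It was at -1.38 ± 0.14 on 1 mM and -0.39 on 10 mM. Others of the 6 smallest p-values had opposite signs on 1 and 10 mM. They were AT3G02480 (1.70 and -0.57), AZG1 (AT3G10960, -0.50 and 0.46) and TAF5 (AT5G25150, 0.42 and -0.56). ATMG00020 was at 0.0005 and 0.80, and MIOX2 (AT2G19800) at -1.06 and -0.22. Some genes named for their change over both media, a choice that favours equal signs, follow. CYP707A3 was at -2.66 on 1 mM and -2.46 on 10 mM, CLH1 at -3.96 and -3.81, and DRM2 at 1.42 and 1.67. JAZ10 was at -1.60 and -2.17, and CCA1 at -0.93 and -1.58, the latter from 17.2 ± 0.84 CPM (SD, n = 4) on 1 mM and 26.2 ± 5.95 CPM on 10 mM at 90 min. At 180 min CCA1 was at 8.70 ± 1.91 CPM and 8.82 ± 1.64 CPM. The difference between media had an adjusted p of 0.981 for JAZ10 and for CCA1. A p above the threshold does not show that the step was the same on both media.

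**Figure D5:**
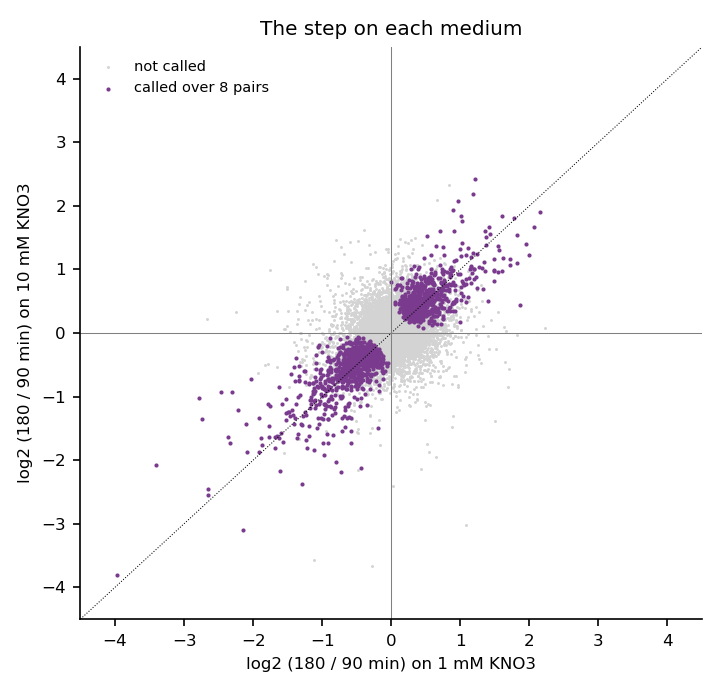
Log2 fold change from 90 to 180 min on 1 mM KNO3 (horizontal) and on 10 mM KNO3 (vertical) for the 18768 genes tested, with genes called over the 8 pairs in purple and the line of equal change dotted. All 1524 called genes lie in the lower left or upper right part, which a call over the pairs of both media favours.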

How the data were processed

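The values the authors deposited are raw read counts without normalization, each library having its own table of 32833 gene identifiers. Bowtie2, SAMtools, HTSeq and FastQC and build TAIR10 are named, per the submitters' processing notes. The sources used here give no versions, settings or use of strand. Overlapping, antisense and near-identical genes may thus share or split reads. RefSeq genes of TAIR10.1 matched 32548 identifiers and gave names and promoters.

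Counts of all 36 libraries were scaled by TMM and filtered by filterByExpr, leaving 18768 genes. edgeR 4.0.16 (R 4.3.3) fitted the 16 libraries with 8 pair terms and 1 coefficient for time, and tested it two-sided with Benjamini-Hochberg adjustment at 0.05 and no minimum fold. The labels name a batch, which pairs the libraries, and within pairs the deviations of the 2 times from their group means correlated at 0.0691 to 0.33. Separate coefficients per concentration gave the values for each medium and their difference. The preceding step used the 45 and 90 min libraries, and the difference between steps all 24. Standard errors were taken as the absolute log2 fold change divided by the root of F and are approximate. Replicate libraries within groups differed by more than sampling noise (chi-square per degree of freedom 2.62 to 10.9). Pair changes use log2 of CPM plus 0.5. Counting intervals of 95% cover counting error only. Simulated counts of 18768 genes were drawn independently from the fitted pair levels and dispersions. They held no change over time shared within a batch, so they do not show how the test performs under such changes. On them the test of 180 against 90 min called 56.7% of the genes set to change 1.5-fold. The share was 94% at 2-fold and 98.5% at 4-fold, and 8 unchanged genes were called.

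Alternatives were RLE scaling, no filter on low counts, DESeq2 1.42.0, other or no blocks, scaling over the 16 libraries, and leaving out each batch and, over both media, each pair. The comparison, its 35 gene lists and 6 marker lists were chosen with earlier results of these data known. Lists are described by counts and medians, with no set test. Named genes are up to 12 called genes of highest and 12 of lowest fold change (mean of at least 1 log2 CPM, 1 direction in all pairs), up to 3 called members per list, 14 genes whatever their result, and the 6 smallest p-values of either difference test. Other list members were named, and jasmonate promoters searched, after their values were seen.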

Additional observations from a re-analysis of the deposited data

Results flagged for a closer look

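In 9 of 101 named genes examined, 1 of the 8 pair changes stood apart from the other 7 by Dixon's criterion, which chance alone gives in about 1 of 20. With the library totals of the 4 groups, 105 sets of values were examined, and no total stood apart. The 1 mM pair of batch 1 stood apart for FRO2 (log2 0.794, others -1.72 to -0.611), BCAT2 (-0.97, others 0.903 to 1.91) and PIN5 (-0.251, others 0.722 to 1.1). The 10 mM pair of batch 1 did so for the phloem marker SUC2 (0.831, others 0.0664 to 0.41). The 10 mM pair of batch 2 was lowest for GRP7 (0.467, others 1.01 to 1.42) and nearest to 0 for BT5 (-0.058, others -0.85 to -0.503). ABF1 was at 0.0631 in the 10 mM pair of batch 3, against 1.5 to 2.15 in the others. JAZ10 was at -0.976 in the 1 mM pair of batch 4 (others -2.27 to -1.68), and CYP71A16, of triterpene synthesis, at -0.933 in the 1 mM pair of batch 3 (others -0.588 to -0.394).

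The step from 90 to 180 min differed from the step from 45 to 90 min in 515 genes, by edgeR's test of that difference with Benjamini-Hochberg adjustment, and the 6 of smallest p are given here. The later minus the preceding log2 fold change was -4.89 for CLH1, -2.57 for CYP707A3, -2.46 for AT3G25570, -2.43 for SULTR1.2, -2.1 for SIP2 and -2.07 for AT1G30820. Adjusted p-values ran from 2.13e-12 for SULTR1.2 to 2.05e-08 for CYP707A3. The steps differ in length and share the 90 min libraries.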

How the results depend on the processing

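With no replicate block 759 genes were called over both media, 233 on 1 mM, 192 on 10 mM, 844 from 45 to 90 min and 180 for the difference between steps. Leaving out each batch or pair in turn gave 890 to 1595 genes over both media. Leaving out each batch gave 289 to 694 on 1 mM and 387 to 896 on 10 mM. Leaving out each batch, or 1 mM pair 4 alone, gave 703 to 1301 from 45 to 90 min and 263 to 487 for the difference between steps. For the difference between media the fits without 1 batch called 0 to 5 genes, and with no filter on low counts there were 12. RLE scaling, DESeq2, batch alone as the block, all 36 libraries, scaling over 16 libraries and no filter gave 1229 to 1726 genes over both media. None of these alternatives turned the direction of a called gene that stayed called. Of 95 named genes called, 71 kept call and direction under every alternative. LBD16, at 0.03, was not called under any of these alternatives and ran from -0.0715 to 0.162 when a batch or pair was left out, below 0 without batch 1 or 3, 1 mM pair 3, or 10 mM pair 1, 3 or 4. Depth limits genes with few reads, such as PRR5 and JAZ8, and batch 1 is the least deep.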

Other observations

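Further lists had calls in either direction from 90 to 180 min. Of 21 energy and sugar starvation genes 2 were higher and 4 lower (median 0.06), with DRM2 at 1.54 and ERD5 (AT3G30775), proline dehydrogenase, at -0.79 ± 0.10, from 66.35 to 176.5 CPM at 90 min and 50 to 92.0 CPM at 180 min. By medium ERD5 was at -1.09 on 1 mM and -0.48 on 10 mM, a difference that edgeR did not call (adjusted p = 0.981). BCAT2 (AT1G10070), of branched-chain amino acid breakdown, had 23 reads at 90 min and 70 at 180 min, a ratio of 3.23 (95% counting interval 1.99 to 5.43), and its call was lost without batch 4 (adjusted p = 0.0623). Of 8 class III glutaredoxins 2 were higher and 0 lower. AT1G06830 had 3.28 to 9.98 CPM and then 13.7 to 22.4 CPM, without overlap (1.24 ± 0.13, edgeR, Benjamini-Hochberg adjusted p = 3.4e-08). GRXS13 (AT1G03850) was at 0.55 ± 0.10.

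Of 8 measured abscisic acid genes 4 were lower and 0 higher (median -0.42), CYP707A3 and TMAC2 (AT3G02140) among them, the latter at -0.58 ± 0.09. The count was 2 without the pair terms. Of 5 CBF and cold genes 1 was higher and 1 lower. AT4G33980 rose by 1.05 ± 0.17 without overlap, from 3.20 to 5.33 CPM at 90 min and 6.13 to 10.9 CPM at 180 min. Of 5 triterpene genes 1 was higher, THAH (AT5G48000) at 0.26 ± 0.08, and 1 lower, CYP71A16 (AT5G42590) at -0.55 ± 0.07. The THAH call was lost without the pair terms (adjusted p = 0.221) and without any 1 of the batches. The Aux/IAA list had 1 of 17 higher, IAA3 (AT1G04240) at 0.38 ± 0.08, and the brassinosteroid list 1 of 7 lower, BES1 (AT1G19350) at -0.43 ± 0.11. IAA3 was not called without the pair terms (adjusted p = 0.172) or without batch 4 (0.0505), nor was BES1 without batch 3 (adjusted p = 0.113). In the heat shock list 1 of 11 was lower, HSP70 (AT3G12580) at -0.52 ± 0.11, a call lost without batch 2 (adjusted p = 0.126), with DESeq2 (0.0763) and without the pair terms (0.108). Of 6 auxin conjugation and 8 ribosome biogenesis genes edgeR called 0, with 0 at an unadjusted p under 0.05 and 0 by DESeq2 on either list. Over all genes edgeR called 8.12%, and 0 is near that share on lists this short.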
